A study of Homo sapiens with 12 samples.

Results

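The 9 enzymes described here make serine and carry its one-carbon unit through the folate cycle. They are PHGDH, PSAT1 and PSPH of serine synthesis, SHMT1 and MTHFD1 of the cytosolic folate cycle, and SHMT2, MTHFD1L, MTHFD2 and ALDH1L2 of the mitochondrial folate cycle. They were matched by symbol to the Ensembl identifiers of the count table, so they are 9 of 60675 gene IDs. All 9 had counts, passed the filter on low counts and were among the 15374 genes tested.

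The values come from HT29, a human cell line derived from colorectal adenocarcinoma. Cells received, for 24 h, a water extract of Aconitum carmichaeli Debeaux (ACD) at a low dose of 20 µg/mL, a medium dose of 100 µg/mL or a high dose of 500 µg/mL. Controls received the vehicle alone, namely PBS that contained 2% DMSO. There were 3 RNA libraries for each of the 4 groups, all of this 1 line with no gene altered. A treatment note kept with the libraries describes an extract of Poria cocos, whereas their titles and treatment field name ACD, and the groups follow the titles. Nothing in the labels states whether the 3 libraries of a group were separate cultures, so the spread given may be technical. In bulk RNA, fewer cells of a kind and less RNA per cell cannot be told apart.

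Serine is made from an intermediate of glycolysis in 3 steps. PHGDH oxidises 3-phosphoglycerate, PSAT1 transfers an amino group from glutamate, and PSPH removes the phosphate. Serine hydroxymethyltransferase then splits serine into glycine and a one-carbon unit bound to tetrahydrofolate, with SHMT1 in the cytosol and SHMT2 in mitochondria. In mitochondria, MTHFD2 and MTHFD1L oxidise this unit and release it as formate, which leaves for the cytosol, while ALDH1L2 oxidises it to carbon dioxide and gives NADPH. In the cytosol, MTHFD1 attaches formate to folate again, for the synthesis of purines, thymidylate and methionine. Proliferating cells, tumour cells of the colon among them, draw on this pathway, and several of its genes are known targets of the stress-induced transcription factor ATF4.

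The sequences before the start sites are shown first for PSAT1, MTHFD2 and SHMT1, since these are 1 enzyme of each branch, and since the first 2 were higher at the high dose whereas SHMT1 was not. They are RefSeq sequences of build GRCh38.p14, written 5′ to 3′ on the strand of the gene, from 250 bases before the transcript start up to the start or to the first annotated exon of the gene. Capitals mark the CCAAT box, searched on both strands as CCAAT or ATTGG. The PSAT1 stretch is chr9:78296875-78297124 on the plus strand, the MTHFD2 stretch is chr2:74198365-74198609 on the plus strand, and the SHMT1 stretch is chr17:18363564-18363800 on the minus strand.
PSAT1: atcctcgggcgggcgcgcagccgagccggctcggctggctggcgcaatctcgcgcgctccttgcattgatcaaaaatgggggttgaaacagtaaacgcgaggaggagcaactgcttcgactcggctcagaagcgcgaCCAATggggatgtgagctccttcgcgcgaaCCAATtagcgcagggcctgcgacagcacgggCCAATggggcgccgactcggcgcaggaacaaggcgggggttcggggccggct
MTHFD2: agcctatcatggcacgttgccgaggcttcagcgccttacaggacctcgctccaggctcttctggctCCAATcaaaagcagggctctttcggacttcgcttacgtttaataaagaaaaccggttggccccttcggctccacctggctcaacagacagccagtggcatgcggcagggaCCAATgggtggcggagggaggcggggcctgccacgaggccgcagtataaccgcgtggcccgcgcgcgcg
SHMT1: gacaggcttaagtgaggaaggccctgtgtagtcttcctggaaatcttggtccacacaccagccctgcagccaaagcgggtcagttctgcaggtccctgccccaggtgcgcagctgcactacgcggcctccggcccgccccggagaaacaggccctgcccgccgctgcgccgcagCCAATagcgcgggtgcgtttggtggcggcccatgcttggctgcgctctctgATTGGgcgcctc
PSAT1 held the CCAAT box at 3 places, with the first base of each match at −113, −83 and −52 from the start. MTHFD2 held it at −184 and −74, and SHMT1 held it at −76 and, on the other strand, at −25. Of the 9 enzymes, 6 had a RefSeq window of 300 bases (250 before and 50 after the start), and a CCAAT box was found for all 6, including PHGDH at −71, MTHFD1 at −216 and MTHFD1L at −193. Of all 35116 windows, 34.6% held it, and of the 27305 gene symbols, 39.7% held it in at least 1 window. Annotated exons of the same gene cover 197 of the 250 bases before the PHGDH start and all 250 before that of MTHFD1. The PHGDH and MTHFD1 matches named here lie in those exons.

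A second motif searched was the core of the C/EBP-ATF response element, TGATGNAA, to which ATF4 and its partners are known to bind. It was found in 3.62% of all windows and, among the 6 enzymes, for MTHFD1L alone, at −129 of its first RefSeq start. That site lies on the plus strand at chr6:150866346-150866375, in an exon of another annotated MTHFD1L transcript, and the match is in capitals.
MTHFD1L: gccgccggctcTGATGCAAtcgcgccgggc
The E-box CACGTG, which was in 7.26% of all windows, was found for MTHFD1 at −15 and for MTHFD1L at −154. The MTHFD1 match lies in an annotated exon of that gene. The TGATGNAA and CCAAT letters do not overlap in these windows, and a match is a description of the sequence and not a site shown to be bound. PSPH, SHMT2 and ALDH1L2 were not in the RefSeq table used.

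The libraries held 15941255 to 33866644 expected counts. All 8 colon epithelium markers listed (EPCAM, CDX2, VIL1, CDH17, LGALS4, KRT8, KRT18 and KRT20) were above 1 CPM in every library. Of 12 markers of immune, endothelial, fibroblast, glial and liver cells, CD68 and PECAM1 were above 1 CPM in every library, APOA2 had no count, and the 12 summed to 9.85 to 11.03 CPM in the vehicle group and 12.8 to 15.2 CPM at the high dose. CD68 was 1.48-fold higher at the high dose (adjusted p = 0.0151), and its part in the results was not tested. High-dose replicate 2 stood apart. Its SD of log2 differences from the other 2 libraries of its group, over 10626 genes, was 0.502, against 0.102 to 0.293 for the other libraries. This library is named below for some, not all, of the values that it moved. Counts of the mitochondrial genome made up 14.0 to 16.6% of the high-dose libraries and 7.41 to 11.05% of the others. With those genes left out of the library sizes, the same number of members, 3, met the thresholds at the high dose.

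The first question was at which dose the enzymes changed. At the high dose, PHGDH, PSAT1 and MTHFD2 were differentially expressed genes (DEGs) by edgeR at the thresholds of the study. These ask for a fold change over 1.5 and an adjusted p under 0.05. PSPH, SHMT2 and MTHFD1L were 1.40-fold to 1.497-fold higher, below the minimum fold change. SHMT1, MTHFD1 and ALDH1L2 did not pass the test. Thus 3 of the 9 were called higher and 0 lower, where 1.26% of all genes tested were called higher. The count was 4 with DESeq2 on all libraries and 5 with edgeR without high-dose replicate 1. The study used the Wald test of DESeq2 and did not state which libraries entered a fit. At an adjusted p under 0.05 alone, 6 of the 9 were higher, and 2.82% of all genes were, but PSPH stayed under it in only 7 of 20 alternative analyses. All high-dose libraries of 7 of the 9 were above all vehicle libraries, as for 10.5% of all genes. The 9 were selected on their function, with their CPM and high-dose changes in these libraries known, so these counts are a description and give no support of their own. The median log2 fold change of the 9 was 0.55, and that of all genes was 0.01.

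PSAT1, the transaminase of the second step, had the highest fold change of the 9 at the high dose. Its level was 99.6, 97.1 and 103 CPM in the 3 vehicle libraries, 106, 95.8 and 111 CPM in low-dose libraries, 114, 109 and 108 CPM in medium-dose libraries, and 253, 301 and 262 CPM in high-dose libraries. The high-dose libraries lay far above all 9 others, which overlapped except that every medium-dose library was above every vehicle library. The mean was 272 ± 25.7 CPM at the high dose and 100.0 ± 3.16 CPM in the vehicle group (SD, n = 3), a log2 fold change of 1.44 (SE 0.08), or 2.72-fold.

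PHGDH, which catalyses the first step, was lower in level and more spread. It was at 35.8, 29.3 and 26.2 CPM in vehicle libraries, 24.9, 28.5 and 31.3 CPM in low-dose libraries, 28.4, 27.0 and 26.8 CPM in medium-dose libraries, and 53.6, 70.8 and 53.1 CPM in high-dose libraries. The high dose did not overlap with any other group, and the low and medium doses lay within or next to the range of the vehicle. The means of 59.2 ± 10.1 and 30.4 ± 4.87 CPM (SD, n = 3) gave a log2 fold change of 0.96 (SE 0.14), and the value was 0.82 without high-dose replicate 2.

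PSPH, the phosphatase of the last step, depended most on that library for the size of its change. It was at 45.4, 40.6 and 41.8 CPM in the vehicle group and at 49.7, 81.3 and 56.4 CPM at the high dose, with 39.2 to 42.5 CPM over the 6 low-dose and medium-dose libraries. All 3 high-dose libraries were above all others, but 2 of them were much closer to the vehicle than replicate 2 was. The log2 fold change was 0.55 (SE 0.14), or 1.46-fold, and fell to 0.32 (SE 0.07) without replicate 2. By edgeR the adjusted p was 0.0414 with all libraries and 0.00369 without replicate 2, so leaving it out did not weaken the test. The adjusted p of PSPH was above 0.05 in most alternative analyses, and up to 0.276 where edgeR was fitted to the vehicle and high-dose groups alone.

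Of the mitochondrial enzymes, SHMT2, which splits serine, was at 238, 220 and 216 CPM in vehicle libraries, 224, 236 and 243 CPM in low-dose libraries, 242, 229 and 243 CPM in medium-dose libraries, and 335, 354 and 321 CPM in high-dose libraries. The high dose stood clear of the other 3 groups, which overlapped with each other. The log2 fold change was 0.58 (SE 0.07), or 1.497-fold, just below the 1.5-fold minimum. SHMT2 was called in 11 of 20 alternative analyses, so its place on either side of the threshold was set by small shifts, whereas its log2 fold change stayed between 0.55 and 0.63.

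MTHFD2, the mitochondrial dehydrogenase and cyclohydrolase, was the nearest member above the threshold at 1.72-fold. It was at 151, 146 and 144 CPM in vehicle libraries, 137, 134 and 148 CPM in low-dose libraries, 143, 150 and 141 CPM in medium-dose libraries, and 220, 313 and 223 CPM in high-dose libraries. Here too all high-dose libraries were above the rest and replicate 2 was the highest. The log2 fold change was 0.78 (SE 0.12) and 0.60 without replicate 2, and the call was lost where edgeR was fitted to the vehicle and high-dose groups alone.

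MTHFD1L, which releases formate in mitochondria, was at 41.1, 40.4 and 42.2 CPM in vehicle libraries, 40.7, 41.5 and 45.2 CPM in low-dose libraries, 44.4, 44.1 and 44.02 CPM in medium-dose libraries, and 56.0, 61.4 and 55.9 CPM in high-dose libraries. The medium-dose and the high-dose libraries both lay above the vehicle libraries, by a log2 fold change of 0.10 (SE 0.07) and 0.49 (SE 0.07). ALDH1L2 was near the limit of detection, with 6 to 26 counts in a library against at least 597 for the other members. Its level was 0.385, 0.697 and 0.395 CPM in the vehicle group and 0.495, 0.425 and 0.277 CPM at the high dose, so a change was not detectable at this depth (log2 fold change −0.42, SE 0.38). It overlaps WASHC4 and NOPCHAP1 on the other strand. The library kit was directional, but the strand setting of the counting was not given, and without strand the reads of these genes cannot be told apart.

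The cytosolic enzymes moved little. SHMT1 was at 66.5, 60.3 and 63.5 CPM in vehicle libraries, 59.3, 61.7 and 63.2 CPM in low-dose libraries, 58.3, 57.0 and 59.6 CPM in medium-dose libraries, and 57.1, 61.6 and 55.2 CPM in high-dose libraries. These ranges overlapped between the high dose and the vehicle, with a log2 fold change of −0.13 (SE 0.07). MTHFD1 was at 119, 128 and 132 CPM in vehicle libraries, 130, 137 and 140 CPM in low-dose libraries, 144, 131 and 139 CPM in medium-dose libraries, and 138, 144 and 136 CPM in high-dose libraries. Its high-dose libraries were all above the vehicle libraries, but by a log2 fold change of only 0.14 (SE 0.07), which did not pass the test. SHMT1 overlaps SMCR8 and MTHFD1 overlaps ZBTB25 on the other strand, so their counts carry the same limit as those of ALDH1L2. ZBTB25 was at 13.8 CPM with vehicle and 14.2 CPM at the high dose. SHMT2 and MTHFD2 overlap NDUFA4L2 and SLC4A5 on the other strand, which held at most 1.41 and 0.85 CPM in any library.

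**Figure D1:**
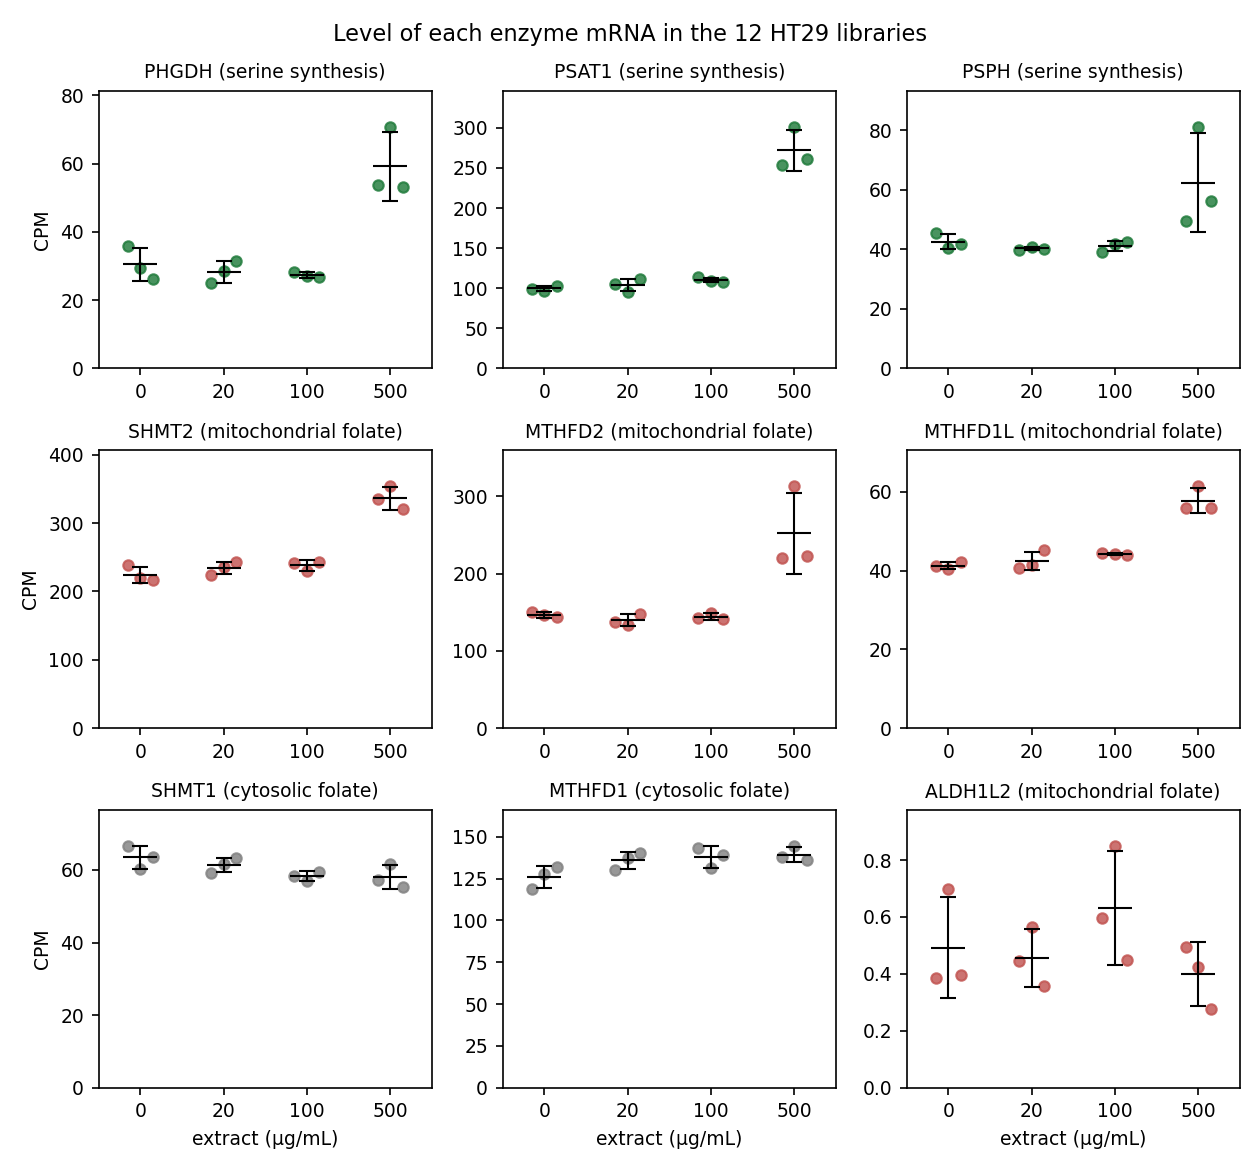
Level of each of the 9 enzyme mRNAs (CPM, linear axis from 0) against the concentration of the extract, with 1 point per library in the order of replicates 1 to 3, and the mean and SD (n = 3) in black. The high-dose points of PHGDH, PSAT1, PSPH, SHMT2, MTHFD2 and MTHFD1L lie above all their other points, those of SHMT1, MTHFD1 and ALDH1L2 do not, and high-dose replicate 2 is the highest high-dose library for 8 of the 9.

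At the medium dose 0 of the 9 were called, where 0.676% of all genes were, and at the low dose 0 of the 9, where 0.111% were. By edgeR none had an unadjusted p under 0.05 at these doses, and no alternative analysis, DESeq2 included, called any. The log2 fold changes ran from −0.15 for PHGDH to 0.32 for ALDH1L2 at the medium dose and from −0.16 for ALDH1L2 to 0.11 for MTHFD1 at the low dose. PSAT1 and MTHFD1L were above, and SHMT1 was below, the vehicle in every medium-dose library, 3 of 9 members, while 28.7% of all genes did not overlap in that comparison. Between the high and the low dose, which leaves the vehicle libraries aside but shares the high-dose ones, 4 of the 9 were called higher, where 0.748% of all genes were. These were PHGDH at a log2 difference of 1.06 (SE 0.14), PSAT1 at 1.39 (SE 0.08), MTHFD2 at 0.85 (SE 0.12) and PSPH at 0.63 (SE 0.14), the last with 0.40 without high-dose replicate 2. The PSPH call against the low dose held in only 8 of 20 alternative analyses.

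**Figure D2:**
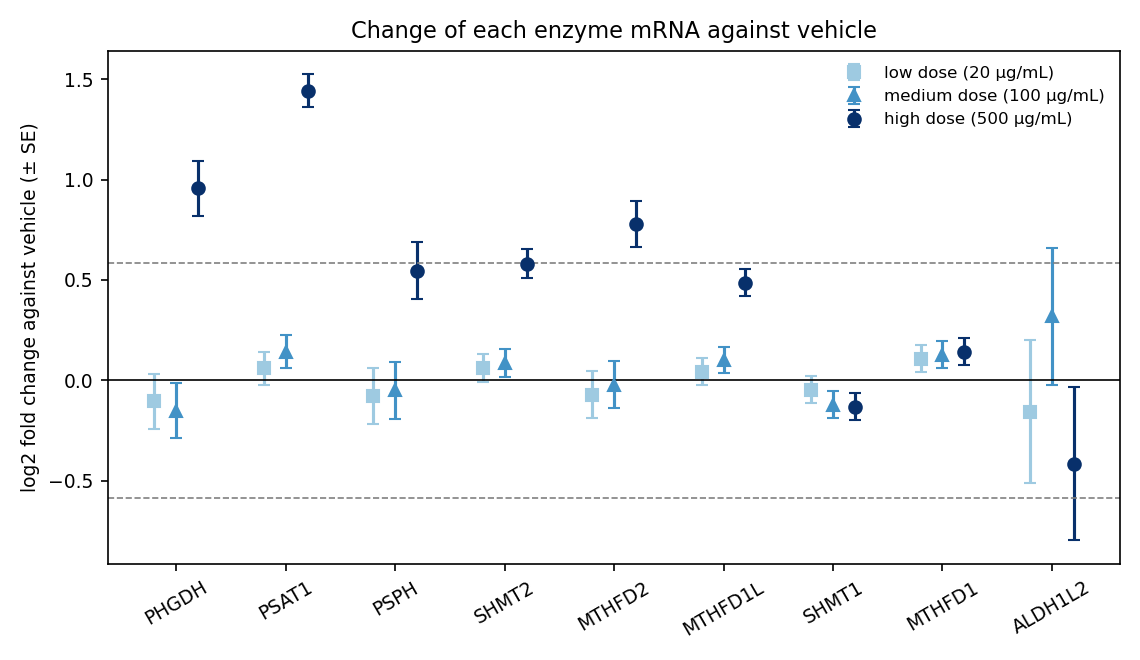
Log2 fold change of each enzyme against vehicle (points) with its SE (bars) from the edgeR fit over all 12 libraries, at the low, medium and high dose, with dashed lines at a 1.5-fold change. Only PHGDH, PSAT1 and MTHFD2 lie past the upper line at the high dose, SHMT2 lies just below it, and the points of the lower doses lie within it.

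The second question was how the mitochondrial and the cytosolic enzymes compared. Since a ratio of 2 genes in the same library hardly depends on library size, the log2 CPM of the cytosolic enzyme was subtracted from that of its mitochondrial counterpart, library by library. SHMT2 minus SHMT1 was 1.84, 1.86 and 1.77 in vehicle libraries, 1.92, 1.94 and 1.94 in low-dose libraries, 2.05, 2.01 and 2.03 in medium-dose libraries, and 2.55, 2.52 and 2.54 in high-dose libraries. The 4 groups did not overlap, and they stood in the order of the dose. The means were 1.82 ± 0.05, 1.93 ± 0.01, 2.03 ± 0.02 and 2.54 ± 0.02 (SD, n = 3), so the difference was 0.11, 0.21 and 0.71 above that of the vehicle. This is a gap between 2 genes picked with their high-dose levels known and was not tested. How often other pairs of genes stand apart in this way was not counted. Of single genes, 21.0% did not overlap between the low dose and the vehicle, and 28.7% between the medium dose and the vehicle. High-dose replicate 2, which was far above its group for other members, was next to the other 2 libraries in this pair. The high-dose shift was 0.72 without it. The steps below the high dose came from both genes, as SHMT2 was 0.06 and 0.08 higher and SHMT1 0.05 and 0.12 lower on the log2 scale at the low and medium doses, none of which passed the test.

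The MTHFD pairs differed from this. MTHFD2 minus MTHFD1 was 0.34, 0.19 and 0.12 in vehicle libraries, 0.07, −0.04 and 0.08 in low-dose libraries, −0.01, 0.19 and 0.02 in medium-dose libraries, and 0.68, 1.12 and 0.71 in high-dose libraries. All low-dose libraries were below all vehicle libraries, and the medium dose overlapped with the vehicle. The mean was 0.18 and 0.15 below that of the vehicle at the low and medium doses and 0.62 above it at the high dose, or 0.48 without high-dose replicate 2. MTHFD1L minus MTHFD1 was between −1.73 and −1.53 in the 9 libraries of the vehicle, low and medium groups and between −1.30 and −1.23 in the 3 high-dose libraries, with a high-dose shift of 0.34. In all 3 pairs the high-dose libraries were above the other 9, and only SHMT2 minus SHMT1 was higher than the vehicle in every low-dose and medium-dose library.

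**Figure D3:**
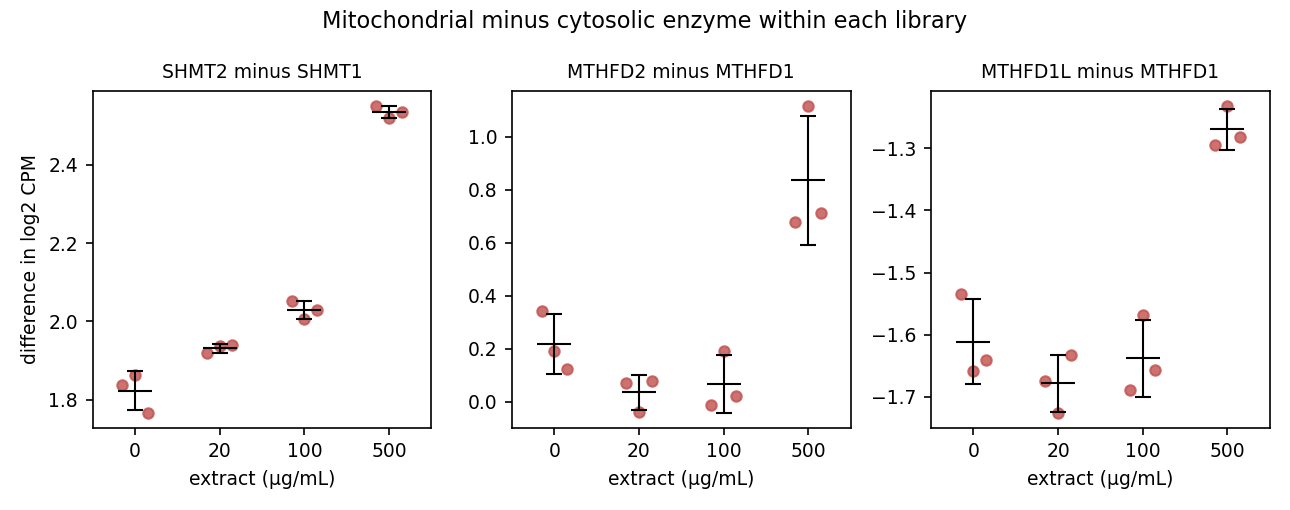
Difference in log2 CPM between a mitochondrial folate enzyme and its cytosolic counterpart within each library, against the concentration of the extract, with 1 point per library and the mean and SD (n = 3) in black (the 3 axes have different ranges and do not start at 0). SHMT2 minus SHMT1 runs from a mean of 1.82 in the vehicle group to 2.54 at the high dose with no overlap between groups, while the other pairs stand above the rest at the high dose only, and MTHFD2 minus MTHFD1 lies below the vehicle in every low-dose library.

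As a share of CPM per kb, SHMT2 made up 80.6 ± 0.543% of the sum of SHMT1 and SHMT2 in vehicle libraries, 81.7 ± 0.121% in low-dose libraries, 82.7 ± 0.222% in medium-dose libraries and 87.2 ± 0.119% in high-dose libraries (SD, n = 3). MTHFD2 made up 45.5 ± 1.93% of the sum with MTHFD1 in the vehicle group and 56.1 ± 4.13% at the high dose, and MTHFD1L made up 23.0 ± 0.836% and 27.5 ± 0.464%. Over all 4 mitochondrial and both cytosolic enzymes, the mean log2 CPM of the mitochondrial enzymes was −1.60 ± 0.12 relative to the cytosolic ones in the vehicle group and −1.21 ± 0.10 at the high dose (SD, n = 3). That shift of 0.39 was lowered by the few counts of ALDH1L2 and was 0.60 without it.

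Levels were compared between genes per length, as CPM per kb of the canonical transcript. In the vehicle group SHMT2 was the highest at 104 ± 5.45 CPM per kb, followed by PSAT1 at 45.3 ± 1.43, MTHFD1 at 40.0 ± 2.05, MTHFD2 at 33.3 ± 0.865, SHMT1 at 25.1 ± 1.23, PSPH at 21.6 ± 1.26, PHGDH at 16.3 ± 2.61, MTHFD1L at 11.9 ± 0.265 and ALDH1L2 at 0.0663 ± 0.0239 CPM per kb (SD, n = 3). No neighbours in this order overlapped between their 3 libraries. At the high dose, SHMT2 at 156 ± 7.71 and PSAT1 at 123.4 ± 11.6 CPM per kb were followed by MTHFD2 at 57.2 ± 11.97, which was then above MTHFD1 at 44.2 ± 1.38 CPM per kb in every library. PHGDH at 31.7 ± 5.40 and PSPH at 31.6 ± 8.43 CPM per kb overlapped, and both were above SHMT1 at 22.9 ± 1.29 CPM per kb. The order rests on 1 length per gene. For MTHFD2 that is 4403 bases, while all its annotated exons together span 11443 bases. For MTHFD1 it is 3154 bases, against 17357 bases for all exons. In CPM, with no length applied, the mean of MTHFD2 was above that of MTHFD1 in the vehicle group too, at 147 and 126 CPM.

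The third question was whether the genes around these enzymes changed with them. The other folate enzymes did not follow. Of 12 listed, 9 were tested and 0 were called at the high dose, where 2.93% of all genes were called in either direction, and their median log2 fold change was 0.01. ALDH1L1, the cytosolic counterpart of ALDH1L2, was the only one with an adjusted p under 0.05, at a log2 fold change of 0.40 (adjusted p = 0.0405), and it stayed under 0.05 in 7 of 20 alternative analyses. Without high-dose replicate 2 the median of the 9 was −0.16, and 4 of them were lower at an adjusted p under 0.05, with none past the minimum fold. MTHFD2L, the paralog of MTHFD2, was at 17.8 ± 0.930 CPM in the vehicle group and 18.2 ± 6.30 CPM at the high dose (SD, n = 3), and it was 1 of those 4.

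Of the enzymes that use the products, few passed. Over all genes tested, 2.93% were called at the high dose in either direction, and 5.77% had an adjusted p under 0.05. A count of 0 in lists this short therefore says little. The glycine cleavage system, which breaks down glycine in mitochondria, had 0 of 3 tested genes called (AMT, GCSH and DLD at 0.23 to 0.29, and at 0.16, −0.21 and 0.06 without high-dose replicate 2), and GLDC held at most 1 count in any library. All 11 purine synthesis enzymes had a log2 fold change above 0, from 0.02 to 0.31 with a median of 0.19, but 0 of 11 passed the test, the smallest adjusted p being 0.0925 for GMPS. Without high-dose replicate 2 the 11 ran from 0.02 to 0.23 with a median of 0.12. ADSS2, which makes adenylosuccinate, fell from 0.31 to 0.12 and PAICS, a purine ring enzyme, from 0.21 to 0.13, while GMPS and PFAS then had an adjusted p under 0.05, below the minimum fold. Of 7 methionine cycle genes tested, 0 were called. MTRR, which reactivates methionine synthase, and AHCYL1, a relative of adenosylhomocysteinase, had an adjusted p under 0.05, with log2 fold changes of 0.33 (adjusted p = 0.00588) and 0.28 (adjusted p = 0.03). MTRR stayed under 0.05 in 19 and AHCYL1 in 10 of 20 alternative analyses. MAT2A, which makes S-adenosylmethionine, had 0.29 (adjusted p = 0.0506). Folate carriers and polyglutamation had 0 of 6 called, with FOLR1 at −0.76 (adjusted p = 0.104), and the enzymes that use serine for other products had 0 of 4.

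CTH, the second enzyme of transsulfuration, which turns cystathionine made from serine and homocysteine into cysteine, was at 3.60 ± 0.345 CPM with vehicle and rose to 6.59 ± 0.932 CPM (SD, n = 3; log2 fold change 0.86, SE 0.13, adjusted p = 0.0024, and 0.0515 with the vehicle and high-dose groups fitted alone). CBS, the first enzyme, held at most 1 count in any library, and since a near-identical copy of this gene is annotated in the genome, its level is uncertain.

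Carriers of serine and glycine had 3 of 9 genes called, all higher, where 1.26% of all genes tested were called higher. SLC6A9, a glycine transporter, rose from 0.596 ± 0.104 to 4.13 ± 1.51 CPM (log2 fold change 2.85, SE 0.32, adjusted p = 0.000249). SLC1A4, a carrier of alanine, serine and cysteine, rose from 9.69 ± 0.265 to 21.5 ± 4.36 CPM (log2 fold change 1.16, SE 0.13, adjusted p = 0.00023). SLC38A2, a carrier of small neutral amino acids, rose from 169 ± 9.18 to 267 ± 15.4 CPM (log2 fold change 0.66, SE 0.07, adjusted p = 0.000155; SD, n = 3). SLC1A5, a glutamine carrier that also takes serine, had 0.39 (adjusted p = 0.0418), below the minimum fold, and stayed under 0.05 in 7 of 20 alternative analyses. The mitochondrial serine carrier SFXN1 had a log2 fold change of 0.11 (SE 0.07), and SLC25A38, the mitochondrial glycine carrier, had −0.04 (SE 0.12), and neither passed the test.

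Of ATF4 and 11 genes that are known as its targets, outside the 9 enzymes, 10 of 12 were called higher at the high dose. Over all genes tested, 1.26% were called higher. The median log2 fold change of the 12 was 1.09. The list was written with earlier results of these libraries known, so its direction is not independent evidence. CHAC1, which degrades glutathione, rose by 2.97 on the log2 scale (SE 0.14, adjusted p = 1.03e-07), and ASNS, asparagine synthetase, by 2.08 (SE 0.13, adjusted p = 1.94e-06). ATF3, SLC7A11, VLDLR, SESN2, TRIB3, PCK2 and DDIT3 rose by 0.76 to 1.45. ATF4 itself was at 251 ± 18.1 CPM with vehicle and 376 ± 39.6 CPM at the high dose (SD, n = 3). Its log2 fold change of 0.585 (SE 0.09, adjusted p = 0.00146) only just passed the minimum fold and lost its call in 7 of 20 alternative analyses. CEBPB at 0.37 and NUPR1 at 0.91 did not pass the test. The 10 proliferation genes listed had 0 called, where 2.93% of all genes were called in either direction. At the high dose 9 of the 10 had a log2 fold change above 0, with a median of 0.13. The 10 summed to 2376 to 2531 CPM in the vehicle group and 2552 to 2621 CPM at the high dose. The sums were 2603 to 2655 CPM at the low dose and 2651 to 2707 CPM at the medium dose. Their order leaned on MKI67, which had a mean of 646 CPM with vehicle and 596 ± 259 CPM at the high dose (SD, n = 3). At the low and medium doses MKI67 was at 728 and 770 CPM. Sums without MKI67 were not taken.

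**Figure D4:**
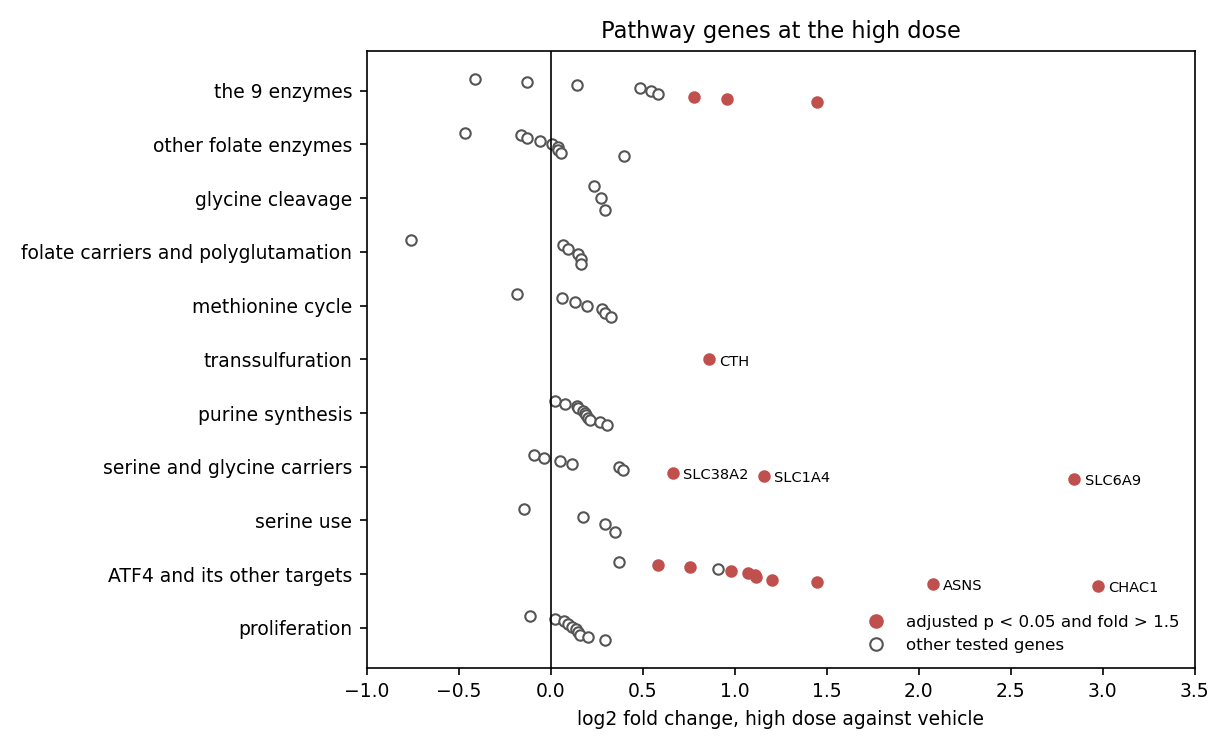
Log2 fold change at the high dose against vehicle of every tested gene of each list (1 point per gene, spread vertically for legibility), with filled points for those past both thresholds for a DEG. Filled points lie in the rows of the 9 enzymes (3), transsulfuration (1), serine and glycine carriers (3) and ATF4 and its other targets (10), and the other 7 rows hold none.

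At the lower doses the lists held 1 called gene, SLC7A11, the cystine carrier, at the medium dose (log2 fold change 0.61), and 0 at the low dose, of 72 tested.

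The genes whose log2 CPM followed an enzyme most closely over the 12 libraries, among 10626 genes with a mean of at least 5 CPM, were found by Pearson correlation. For PSAT1 they were ASNS (r = 0.997), DDIT4 (r = 0.991) and GARS1 (r = 0.988). For PHGDH they were DDIT3 (r = 0.986), EIF4EBP1 (r = 0.972) and MTHFD2 (r = 0.969). For SHMT2 they were PYCR1 (r = 0.980), ASNS (r = 0.980) and ASS1 (r = 0.979), and for MTHFD2 they were SARS1 (r = 0.990), TSC22D1 (r = 0.977) and ATF4 (r = 0.975). The high-dose libraries set much of these values. Over the 9 libraries of the other groups, r was 0.907 for PSAT1 with ASNS and 0.878 for PHGDH with DDIT3, but 0.281 for MTHFD2 with SARS1 and 0.0325 for PSAT1 with DDIT4. These are descriptions over libraries that share the dose groups, and ALDH1L2 was below the level required.

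Among the members, PSAT1 and MTHFD1L had an r of 0.983 over all 12 libraries and 0.847 over the 9 without the high dose, whereas PSAT1 and PHGDH had 0.942 and −0.244. For PHGDH and PSPH the values were 0.915 and 0.538.

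Few counts were assigned to near copies. Expected counts are given after reads that match several genes have been assigned, so these values cannot show how many reads were shared. The 14 pseudogenes named for the members held at most 8 counts in any library, in MTHFD1P1, and the members other than ALDH1L2 held 597 to 10420 counts.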

How the data were processed

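RNA of HT29 cells was sequenced with a directional kit as paired reads of 100 bases. Per the labels and the methods, the authors used FastQC for quality, Trim Galore for trimming, STAR for alignment to GRCh38 and RSEM for counting, with no strand setting given in the sources used here. The deposited values are expected counts per Ensembl gene, not normalized, of 12 libraries, and no column lay outside these samples. They were rounded to whole numbers. Symbols, transcript lengths and overlaps came from GENCODE release 44, which held 93.2% of the gene IDs, and start sites from RefSeq (GRCh38.p14).

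Groups were compared with edgeR 4.0.16 in R 4.3.3, by its quasi-likelihood test (filterByExpr, TMM, robust) over the 4 groups, with Benjamini-Hochberg adjustment over 15374 genes in each comparison. CPM values use the TMM library sizes, and log2 CPM a prior count of 2. DEGs were genes past 1.5-fold at an adjusted p under 0.05. The common biological coefficient of variation was 11.2%. The procedure was tested on simulated data in which all libraries had the same dispersion, so an outlying library such as high-dose replicate 2 was not covered. Replicate numbers were not taken as pairs of libraries.

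Named were all 9 members, and of each list the genes called at the high dose and up to 3 with the smallest p, plus the 3 genes most correlated with PHGDH, PSAT1, SHMT2, MTHFD2 and ALDH1L2. Of the genes this rule names, 2 are not reported here. PFAS, MTHFD2L, CEBPB, NUPR1, SLC1A5, SFXN1, SLC25A38, GLDC, CBS, CD68 and the correlations between members were named after their values were seen. The members and lists were chosen with earlier results of these data known, so the values of members are given as a description. Alternatives were DESeq2 1.42.0, edgeR on the groups compared only, other scalings and filters, a replicate block, and leaving out each library.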

Additional observations from a re-analysis of the deposited data

How the results depend on the processing

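Of the 9 members, 3 were called at the high dose against vehicle, and over 21 alternatives the count ran from 2 to 6. It was 6 with no minimum fold change and 2 with edgeR on these 2 groups alone, where PSPH, MTHFD2 and MTHFD1L had adjusted p of 0.276, 0.0712 and 0.0569. Leaving out 1 library gave 3 to 5, with 5 without high-dose replicate 1. Against the low dose the count was 4, or 2 with edgeR on those libraries alone, and 3 to 4 leaving out 1 library. At the medium and low doses it was 0 under all alternatives. Of 72 tested pathway genes outside the members, 14 were called, where 2.93% of all genes were, and 11 to 18 under the alternatives. The mean shift of mitochondrial against cytosolic enzymes of 0.39 was 0.60 without ALDH1L2, and 0.34 to 0.45 leaving out 1 library. Without high-dose replicate 2, GCSH went from 0.23 to −0.21 and CDK1 from 0.30 to −0.016, neither past the test before or after. CTH and DDIT3 lost their calls with edgeR on the groups compared alone (adjusted p of 0.0515 and 0.0722).

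Over all genes, the high-dose DEGs numbered 451, and 172 with edgeR fitted without the low and medium doses and 768 without high-dose replicate 2. The cause was not tested. Same-numbered libraries had deviations with correlations of −0.495 to 0.372, and the numbers were not taken as pairs. With 3 libraries per group and high-dose replicate 2 apart, these correlations cannot exclude a batch shared by same-numbered libraries. With the replicate block, 3 members were called at the high dose against vehicle, 3 against the low dose, 0 at the other doses, 13 pathway genes and 379 DEGs. The counts of ALDH1L2 limit what can be seen of it. Its log2 fold change was −0.42, and −0.01 without vehicle replicate 2.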
